A study of Homo sapiens with 5 samples.

Results

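Glycolysis was examined through 32 genes for glucose uptake, the enzymes of the pathway and their regulators, lactate production and export, and the entry of pyruvate into the mitochondrial cycle. They were found by gene symbol in a table of 33857 genes, and all 32 were listed once. One of them is GAPDH, a gene whose mRNA the study used as the internal control in part of its RT-qPCR. Poly(A+) RNA was sequenced from 5 samples of the human embryonic stem cell line H9, grown in mTeSR medium. The 2 mock control samples came from clones of cells that received the empty CRISPR-Cas9 vector, chosen at random, and the 3 CFIm25-m samples came from single-cell clones edited with guides near the start of the CFIm25 gene, which codes for a subunit of the mRNA 3' processing complex CFIm. The sample labels give the treatment as control KO and CFIm25 KO and number the samples as replicates. The description as clones, and as knockdown/mutant lines, is that of the study. Each clone is 1 sample, so a difference shown by a single clone cannot be told apart from a feature of that clone. The p-values rest on the spread between these 5 samples, with no repeat of any clone.

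Glycolysis splits glucose into pyruvate in the cytosol and yields ATP without oxygen. Pluripotent stem cells are known for a high rate of glycolysis and for turning much of their pyruvate into lactate. Most steps are served by several isozymes from separate genes. Because enzymes such as GAPDH are abundant in nearly all cells, their mRNAs are often used as references, and a reference is useful only if its level is the same in the groups being compared.

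Values are normalized counts, which are the reads of a gene scaled by the size factor of its sample. Differences are log2 differences of CFIm25-m minus mock control on the log2(value + 1) scale, fitted by limma-trend with p-values adjusted over all tested genes, and a gene is called at an adjusted p below 0.05. Of the 33857 genes, 19232 reached a value of 10 in 2 or more samples and were tested, among them 31 of the 32 glycolysis genes. The recovered totals were 18754108 to 23372391 reads per sample. NUDT21, the gene of CFIm25, had values of 6503 and 6398 in mock control against 4035, 3281 and 3400.2 in clones 1, 2 and 3 (log2 difference -0.86, adjusted p = 0.00431, limma-trend), so its mRNA was lower in every clone and still present. The call was lost with mock control 1 or 2 left out (adjusted p = 0.0854 and 0.0722, limma-trend). Of 12 pluripotent stem cell markers, all were expressed in all samples, and 1 was called, against 1.88% of all tested genes. Without clone 3, limma-trend called 6 of the 12, against 5.56%. Markers of differentiated lineages had summed normalized counts of 183 to 191 in the 5 samples, the highest being TBX6 with 57.1 to 77.2. Of 6 tested, none was called. In 3 of them, SOX1, TUBB3 and TBX6, all clones were below both mock controls, against 19.8% of all tested genes. In 2, CXCR4 and AFP, all were above, against 17.0%, with unadjusted p = 0.0128 and 0.0207 (limma-trend). The 7 fibroblast markers summed to 16127 and 16507 in mock control against 13348, 16597 and 15980.5 in the clones. Of these, LUM, DCN and COL3A1 were at 0 to 9.65 in all samples, while COL1A1 had 5749 to 8705 and was lowest in the clones, COL1A2 had 1107 to 1493 and PDGFRB 502.5 to 889.5, both highest in the clones, and THY1 had 5620 to 7468 with overlap. Limma-trend called none of the 4 tested, against 1.88% of all tested genes, and 3 had an unadjusted p below 0.05, against 15.1%. DESeq2 called COL1A1 (adjusted p = 0.0158), against 3.27% of all tested genes. Without clone 3, limma-trend called COL1A1 and COL1A2 (adjusted p = 0.0114 and 0.016), against 5.56%. The part of such cells in the values of the glycolysis genes was not tested.

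The primer pair for GAPDH in the RT-qPCR of the study is shown because expression values set relative to GAPDH rest on it. The primers are given from 5' to 3'.
hGAPDH-F1: gtctcctctgacttcaacagcg
hGAPDH-R1: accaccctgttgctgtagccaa
In GRCh37, a different build from that of the gene coordinates given elsewhere here, the forward primer lies at chr12:6647068-6647089 and the reverse primer at chr12:6647281-6647302, on opposite strands. They fall in exons 8 and 9 of the GAPDH transcript, both within the coding sequence, and frame a product of 131 bases on the mRNA. Both matched 9 GAPDH transcripts of the GENCODE v44 annotation. GAPDH transcripts without a match to either primer were not counted. One other annotated gene, the pseudogene GAPDHP71, also held exact matches to both primers, with a product of 137 bases. That pseudogene has no row in the gene table used here.

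GAPDH (ENSG00000111640), which oxidizes glyceraldehyde 3-phosphate, is encoded at 6533927 to 6538374 of chromosome 12 (GRCh38, plus strand). Its values were 46889.8 and 47960.2 in mock control against 41183, 46264 and 32496 in clones 1, 2 and 3. All clones were below both mock controls, clone 2 by little and clone 3 by the most. The ratio to the mock mean was 0.868, 0.976 and 0.685 in clones 1, 2 and 3, and the mean was 39981 ± 6962 (SD, n = 3) against 47425 ± 757 (SD, n = 2). The log2 difference was -0.26 with a standard error of 0.16 (adjusted p = 0.468, limma-trend), which is not past the threshold. Its 95% interval ran from -0.61 to 0.09, or from 0.654-fold to 1.06-fold, so the data bound the difference in GAPDH but do not show that its level was equal. Without clone 3 the log2 difference was -0.12 (adjusted p = 0.282, limma-trend).

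A panel of 18 genes in common use as references put GAPDH in context. By limma-trend none of the 18 was called, against 1.88% of all tested genes, and 2 had an unadjusted p below 0.05, against 15.1%. DESeq2 and edgeR also called none. Without clone 3, limma-trend called 1, TFRC (adjusted p = 0.016), against 5.56% of all tested genes. In 12 of the 18 all clones were below both mock controls and in 0 all were above, against 19.8% and 17.0%. Of the 18, 17 had a negative log2 difference and their median was -0.18, while the median of all tested genes was -0.01. GAPDH had the second most negative difference of the panel. The most negative, -0.42 (adjusted p = 0.145, limma-trend), was that of TFRC, the transferrin receptor. The smallest in size was that of GUSB, the lysosomal enzyme beta-glucuronidase, with normalized counts of 1588 and 1655 in mock control against 1607, 1605 and 1639 in the clones. Further differences were -0.24 for YWHAZ, -0.24 for RPL13A, -0.23 for B2M, -0.23 for RPLP0, -0.19 for HPRT1, -0.18 for PGK1, -0.18 for POLR2A, -0.17 for PPIA, -0.12 for TBP, -0.11 for SDHA, -0.11 for ACTB, -0.10 for IPO8 and -0.09 for EEF1A1.

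The spread over all 5 samples, which includes the difference between the groups, gave a similar order only in part. EEF1A1, with a log2 difference of -0.09, had a coefficient of variation of 13.4%, above the 10.9% of B2M with -0.23. The coefficient of variation was 14.9% for GAPDH and 14.9% for RPL13A, 18.3% for TFRC, 8.82% for PGK1 and 1.69% for GUSB. The lowest sample of GAPDH was clone 3, and the same clone was lowest for RPL13A, RPLP0, PPIA, EEF1A1 and ACTB. The panel's median difference from the mock mean was -0.10 in clone 1, -0.04 in clone 2 and -0.37 in clone 3. Whether this library's own composition plays a part in the GAPDH value was not tested.

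**Figure D1:**
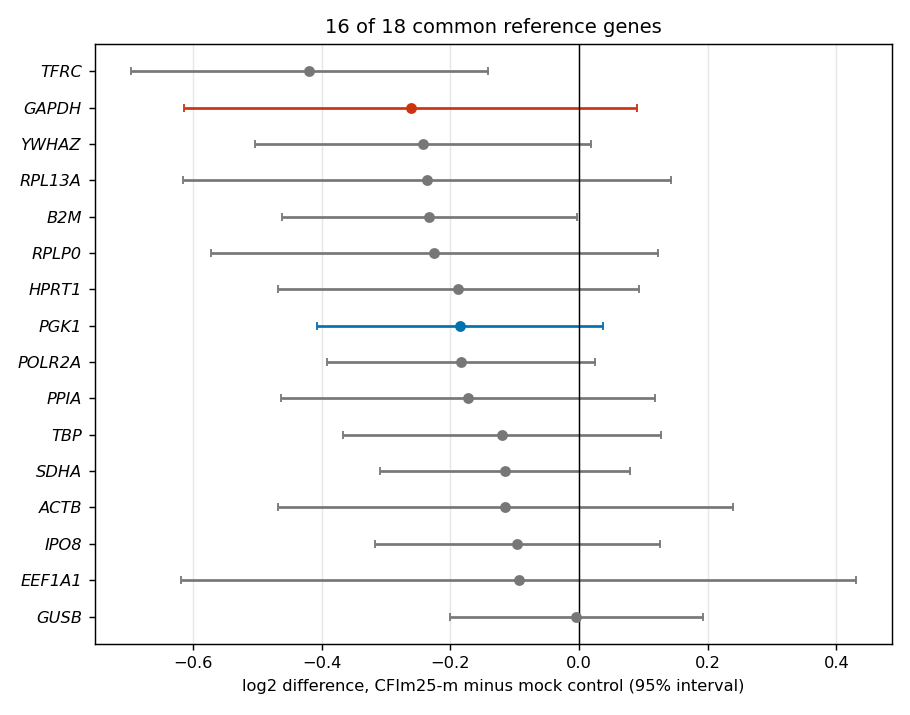
Log2 difference (CFIm25-m minus mock control, x axis) of 16 of the 18 common reference genes with the 95% interval of the limma-trend fit, ordered from the most negative. GAPDH is red, PGK1, which is also a glycolysis gene, is blue, and the interval of GAPDH runs from -0.61 to 0.09.

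Dividing by GAPDH in place of the deposited size factors moved every gene by the same amount in a sample, and the median of all tested genes went from -0.01 to 0.25. With the deposited size factors 23 of 31 glycolysis genes had a negative difference, and 14 of these were positive on the GAPDH scale. GAPDH, also among the 23, is fixed by that division and has no difference there. The 14 glycolysis genes whose sign turned were HK2, PFKL, PFKP, PFKFB1, PFKFB2, PGK1, PGAM1, ENO1, ENO3, SLC16A3, PDHA1, PDHB, PDK1 and PDK3, none of them called on either scale. With GAPDH scaling 45 genes were called lower and 124 higher, against 180 and 181.

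None of the 31 tested glycolysis genes was called in either direction, against 0.936% of all tested genes called lower and 0.941% called higher. At an unadjusted p below 0.05, 10 were lower and 2 were higher, against 7.15% and 7.99% of all tested genes, or 15.1% in both directions. The edgeR quasi-likelihood test also called none, and the DESeq2 Wald test called 1, PKM, against 3.27% of all tested genes. The median log2 difference of the 31 genes was -0.16, and 23 were negative, as were 51.8% of all tested genes. In 14 genes all clones were below both mock controls and in 3 genes all were above, against 19.8% and 17.0% of all tested genes. These counts are descriptions of a list that shares regulation and abundance, so its members are not independent of each other.

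The clones did not contribute evenly to these values. The median difference of the 31 genes from the mock mean was -0.16 in clone 1, -0.07 in clone 2 and -0.21 in clone 3, and 18 of the 31 genes lay farthest from the mock mean in clone 3. The 2 mock controls, by comparison, differed by at most 0.10 in any of the 30 genes with a mean of at least 100. The values of all 32 genes summed to 237538 and 238073 in mock control against 212914, 233168 and 187654 in clones 1, 2 and 3, which is 1.10% and 1.10% against 1.02%, 1.11% and 0.934% of the reads of each sample. Without clone 3, limma-trend called 5 of the 31 genes, against 5.56% of all tested genes, with PKM, TPI1, ENO2 and PDK1 lower and SLC16A1 higher. In bulk RNA, fewer cells of a type and less RNA per cell cannot be told apart.

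**Figure D2:**
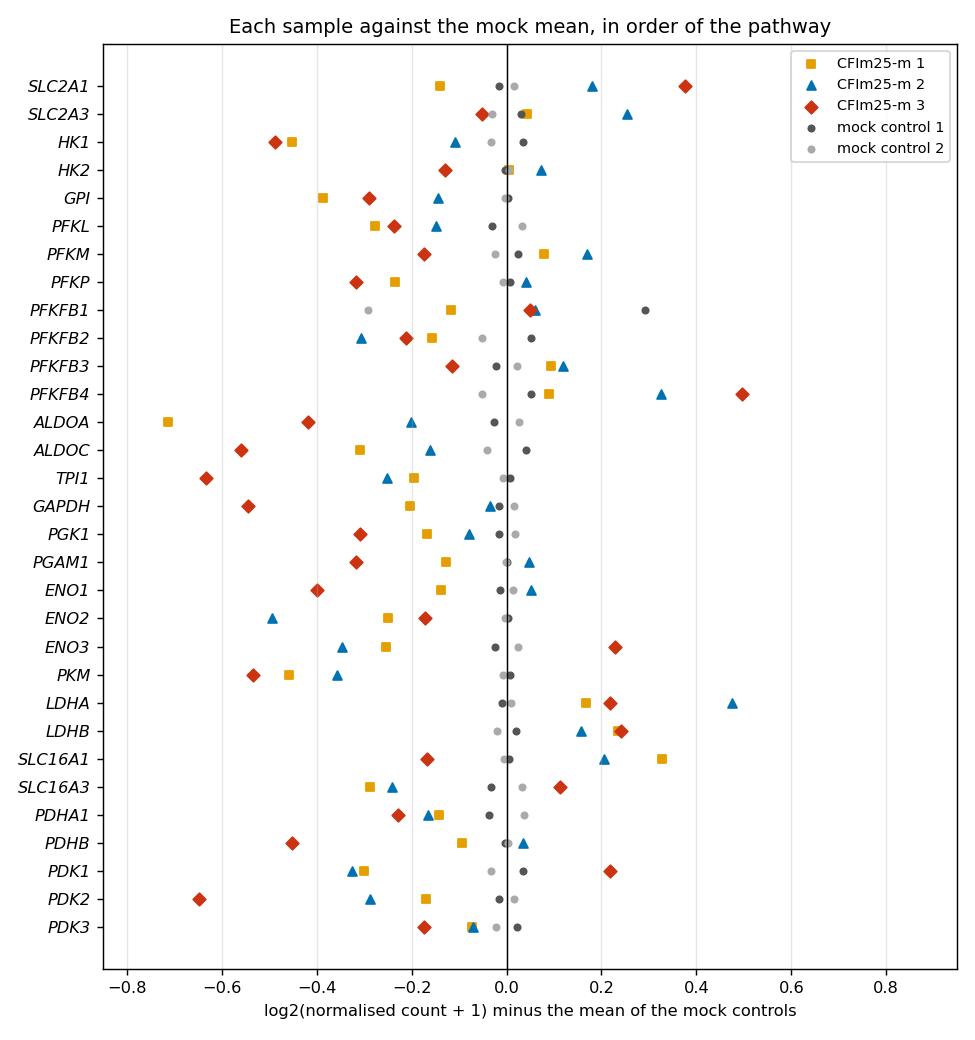
Log2(normalised count + 1) of each sample minus the mean of the mock controls (x axis) for the 31 tested glycolysis genes, from glucose uptake at the top to the pyruvate dehydrogenase kinases at the bottom. The grey mock controls stay within 0.10 of each other for all but PFKFB1, PKM is below them in every clone and LDHA and LDHB are above them in every clone.

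Levels of different genes were compared as normalized count per kb of the gene length in the table. GAPDH had the highest level of the 32, with a mean of 15909 per kb in the mock controls, followed by ENO1 with 7518 per kb, PGAM1 with 4838 per kb, TPI1 with 4553 per kb and PKM with 3587 per kb. In CFIm25-m the clones' ranges of PGAM1 (3881 to 4998 per kb) and TPI1 (2934 to 3975 per kb) overlapped. HK1, PGK1 and SLC2A1 lay close together, with 1631, 1438 and 1384 per kb in the mock controls, and their ranges over the clones overlapped. The PFKFB and PDK regulators, ENO3, ALDOA and SLC16A3 were lower, between 20.98 per kb for the lactate carrier SLC16A3 and 167 per kb for PDK3, leaving aside PFKFB1 and PDK4. The level and rank of ALDOA are uncertain, since another listed gene covers 99.4% of its span on the same strand. Reads over both genes may not have been counted for ALDOA. The lowest 2 were PFKFB1 with 5.99 per kb and PDK4 with 0.937 per kb.

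**Figure D3:**
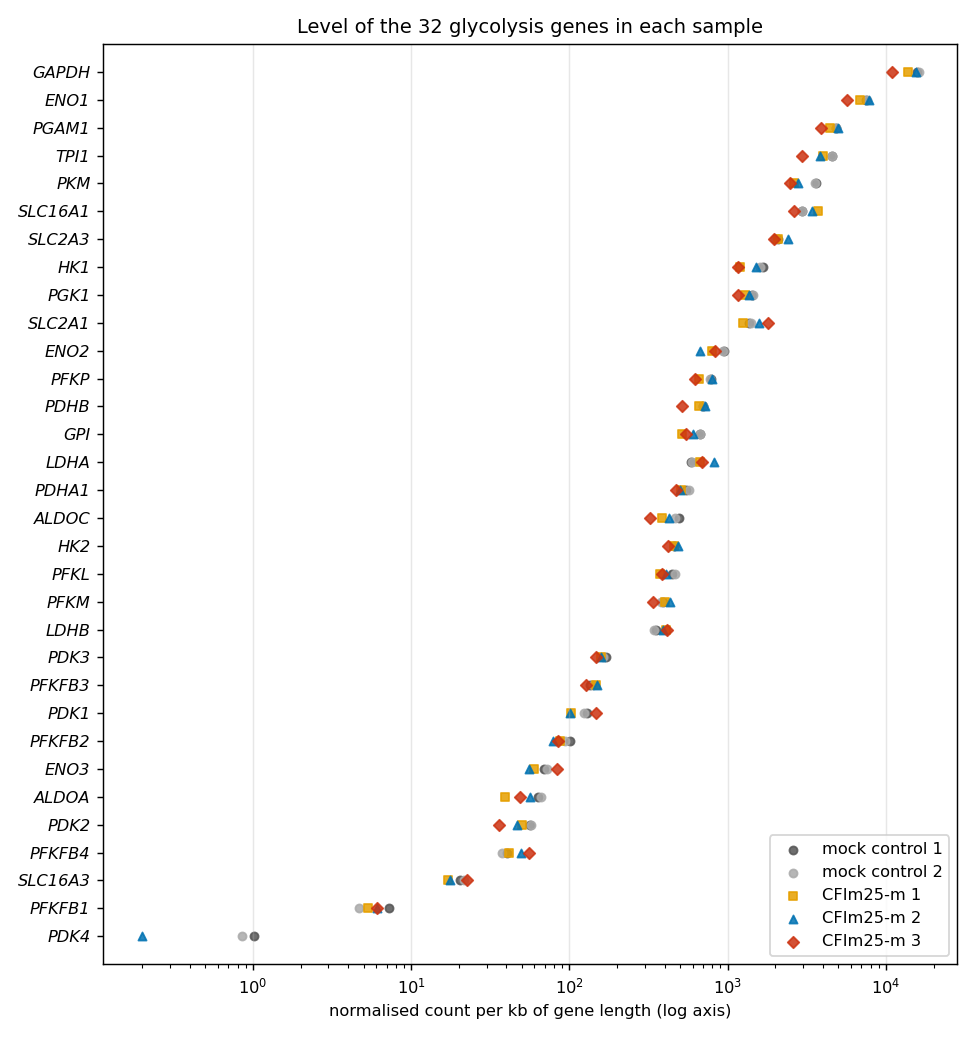
Normalised count per kb of gene length (log axis) of the 32 glycolysis genes in each of the 5 samples, ordered by the mean of the mock controls. Levels run from 15909 per kb for GAPDH to 0.937 per kb for PDK4, whose values of 0 in clones 1 and 3 are not drawn.

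Glucose enters through facilitated transporters. SLC2A1, the GLUT1 transporter, had 6465 and 6609 in mock control against 5931, 7400.4 and 8479 in clones 1, 2 and 3. The groups overlapped, with clone 1 below and clone 3 above the mock controls (log2 difference 0.14, adjusted p = 0.67, limma-trend). SLC2A3, the high-affinity GLUT3 transporter, had 12780.0 and 12250.4 against 12896, 14913 and 12078 (log2 difference 0.08), again with overlap.

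Hexokinases trap glucose in the cell as glucose 6-phosphate. HK1 had 10510.5 and 10031 in mock control against 7505, 9524 and 7318 in the clones. Every clone was below both controls, clone 2 by the least (log2 difference -0.35, adjusted p = 0.224, limma-trend). HK2, the inducible form, had 2772 and 2788 against 2788, 2924 and 2542, a log2 difference of -0.02, whose sign turned with TMM and total-read scaling. GPI, which converts glucose 6-phosphate to fructose 6-phosphate, had 7179.5 and 7153 against 5479, 6482 and 5858 (log2 difference -0.27), with all clones below both controls.

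Phosphofructokinase is the committed step. Its liver form PFKL had 3944 and 4122 against 3328, 3637 and 3421, all clones below both controls (log2 difference -0.22). The muscle form PFKM, with 2850.4 and 2755 against 2960, 3152 and 2483, and the platelet form PFKP, with 3777 and 3735 against 3193, 3866 and 3016, overlapped between the groups, with log2 differences of 0.02 and -0.17. In both, clone 3 was the lowest sample.

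The PFKFB enzymes make and remove fructose 2,6-bisphosphate, the activator of phosphofructokinase. PFKFB3, the form with the highest level per kb, had 829.9 and 856 against 900.0, 915 and 778 (log2 difference 0.03). PFKFB2 had 1030.4 and 959 against 891, 804 and 858 (log2 difference -0.23) and PFKFB4 had 248 and 231 against 255, 299.8 and 338 (log2 difference 0.30). These 2 did not overlap between the groups and lay on opposite sides, with PFKFB2 lower and PFKFB4 higher in every clone, and neither was called. PFKFB1 was near the detection filter, with 9.65 to 14.98 in all samples.

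Aldolase splits fructose 1,6-bisphosphate. ALDOA (ENSG00000149925, chromosome 16 from 30064164 to 30070457, plus strand) had 249 and 259 against 154, 221 and 189.5, with every clone below both controls. The log2 difference was -0.44 with a standard error of 0.18 (adjusted p = 0.269, limma-trend). This value is uncertain, since 99.4% of the gene's span is also covered on the same strand by AC093512.2, and how reads over both genes were counted is not given in the sources used here. AC093512.2 itself had 5.76 to 14.4. ALDOC, the brain form, had 1435 and 1356 against 1126, 1247 and 945.5 (log2 difference -0.34), all clones lower, and lies wholly within AC005726.1 on the same strand, which had 204 to 325.

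TPI1, which interconverts the triose phosphates, had 12355 and 12231 in mock control against 10731, 10320.0 and 7921 in the clones. All clones were below both controls, clone 3 by the most, with a ratio to the mock mean of 0.644 (log2 difference -0.36, adjusted p = 0.24, limma-trend). PGK1, the first ATP-forming enzyme of the pathway, had 7833 and 8020 against 7060, 7498 and 6402 (log2 difference -0.18), again all lower. On the same strand, ATP7A, with 126 to 148, covers 63.9% of the PGK1 span and AL356235.1 covers 24.8%. PGAM1, a phosphoglycerate mutase, overlapped, with 12432 and 12418 against 11369.5, 12834.5 and 9966 (log2 difference -0.13).

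Of the enolases, which form phosphoenolpyruvate, the ubiquitous ENO1 overlapped between the groups, with 39289.6 and 40036 against 36024, 41117 and 30083.5 (log2 difference -0.16). The neuronal form ENO2 had 4039 and 4018 against 3387, 2860.2 and 3573, all clones lower and clone 2 lowest (log2 difference -0.31, adjusted p = 0.224, limma-trend). The muscle form ENO3 had 299 and 309 against 255, 239 and 356 (log2 difference -0.12), and it overlaps the far more abundant PFN1 on the opposite strand.

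PKM (ENSG00000067225), the pyruvate kinase that makes pyruvate and ATP, is encoded at 72199029 to 72231822 of chromosome 15 (GRCh38, minus strand). It had 30885 and 30606 in mock control against 22388, 24005 and 21215.0 in clones 1, 2 and 3, a ratio to the mock mean of 0.728, 0.781 and 0.69. All 3 clones lay well below both controls and close to each other. The log2 difference was -0.45 with a standard error of 0.11 (95% interval -0.70 to -0.20), the largest in size of the 31 genes and the one with the smallest p-value, and its adjusted p of 0.0818 (limma-trend) missed the threshold. The DESeq2 Wald test gave an adjusted p of 0.000653 with a log2 difference of -0.44, and limma-trend without clone 3 gave an adjusted p of 0.00142 with -0.41. At differences of -0.44 to -0.46, the adjusted p was 0.762 and 0.688 without mock control 1 or 2, 0.201 without clone 1 and 0.196 without the mean-variance trend (limma). PKM yields 2 main splice forms, which gene counts do not separate.

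Lactate dehydrogenase, the next enzyme for pyruvate that stays in the cytosol, stood on the other side. LDHA (ENSG00000134333, plus strand of chromosome 11 from 18394388 to 18408425) had 3657 and 3706 in mock control against 4136, 5115 and 4282 in the clones. LDHB, the form of tissues that take up lactate, had 1055 and 1025 against 1223, 1159 and 1229. In both genes every clone was above both controls, and neither was called (log2 differences 0.29 and 0.21, adjusted p = 0.249 and 0.322, limma-trend). The ratio of LDHA to PKM normalized counts, formed after these values were seen, was 0.118 and 0.121 in mock control against 0.185, 0.213 and 0.202 in the clones. With GAPDH scaling the log2 difference of PKM was -0.19 (adjusted p = 0.525, limma-trend).

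**Figure D4:**
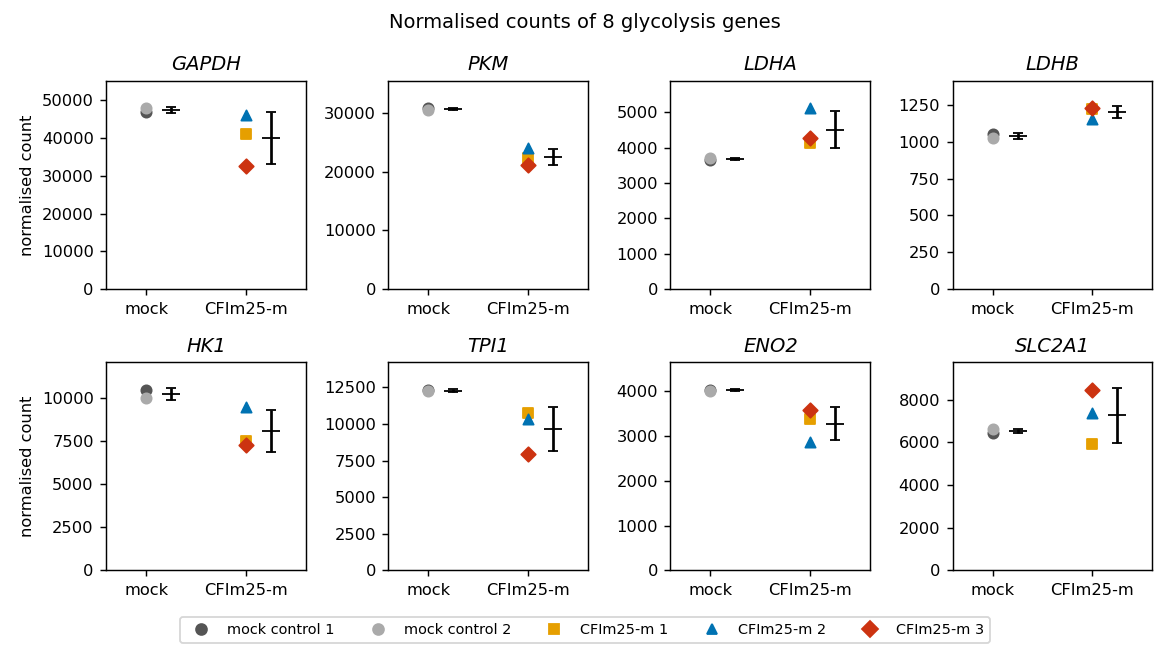
Normalised counts (y axis, from 0) of 8 glycolysis genes in the 2 mock control and 3 CFIm25-m samples, with the mean and SD of each group beside the points. PKM lies between 21215.0 and 24005 in the clones against 30606 and 30885 in the mock controls, LDHA lies above the mock controls in every clone, and clone 3 is the lowest sample for GAPDH, HK1 and TPI1 and the highest for SLC2A1.

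Lactate leaves through monocarboxylate transporters. SLC16A1, or MCT1, had 15719 and 15586 in mock control against 19632, 18037 and 13938.5 in the clones. Clones 1 and 2 were above and clone 3 below both controls (log2 difference 0.12, adjusted p = 0.724, limma-trend), and without clone 3 the difference was 0.27 (adjusted p = 0.0196, limma-trend). SLC16A1-AS1 overlaps its first 599 bases on the other strand and had 353 and 317.5 against 455, 464 and 508 (adjusted p = 0.0759 with limma-trend and 0.0358 with DESeq2). SLC16A3, the MCT4 exporter of highly glycolytic cells, was low, with 184 and 193 against 154, 159 and 204, and shares 67.5% of its span with CSNK1D on the opposite strand.

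Pyruvate that enters mitochondria is oxidized by the pyruvate dehydrogenase complex. Its subunit genes PDHA1, with 2438 and 2564 against 2265, 2230.0 and 2132.5 (log2 difference -0.18), and PDHB, with 3296 and 3315 against 3097, 3385 and 2416 (log2 difference -0.17), were not called. The clones were all below the controls in PDHA1 and overlapped in PDHB.

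The PDK kinases switch the complex off. PDK1 had 1932 and 1843 in mock control against 1532, 1506 and 2194 in clones 1, 2 and 3. Clones 1 and 2 were below and clone 3 above both controls, so the log2 difference of -0.14 averages over opposite directions, and without clone 3 it was -0.31 (adjusted p = 0.027, limma-trend). PDK2 (ENSG00000005882, plus strand of chromosome 17 from 50094737 to 50112152) had 308 and 315 against 277, 255 and 198, all clones lower, with a log2 difference of -0.37 and a standard error of 0.16 (adjusted p = 0.328, limma-trend). PDK3 had 838 and 813 against 785, 786 and 731 (log2 difference -0.11). PDK4 was below the filter, with 4 reads in each control and 0, 1 and 0 in the clones, so no fold change is given.

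The isozymes' shares of their family were compared per gene length with the exact two-sided permutation test, which cannot give a p below 0.1 with 2 samples against 3. Of 19 shares, 2 reached it, those of PFKFB2 and PDK4, and no p adjusted over the 19 by the Benjamini-Hochberg method was below 0.76. HK1 made up 78.5% and 77.6% of the 2 hexokinases in mock control against 72.2%, 75.8% and 73.5% in the clones. PFKM made up 24.2% and 23.4% of the 3 phosphofructokinases against 28.1%, 26.3% and 25.2%. PFKFB2 made up 35.5% and 34.0% of its family against 31.0%, 27.8% and 30.8%, and PFKFB4 14.3% and 13.7% against 14.8%, 17.3% and 20.3%. In these 4 genes, as in PDK4, the groups did not overlap. With only 10 arrangements of 2 against 3 samples such separation is not rare, so it is given as a description only. The shares of LDHA, 62.5% and 63.5% against 61.9%, 68.0% and 62.6%, overlapped, as did those of SLC2A1, ENO1 and PDK1. In the PDK and glucose transporter families clone 3 stood apart, with PDK1 at 44.5% of its family against 33.0% to 36.4% in the other samples.

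**Figure D5:**
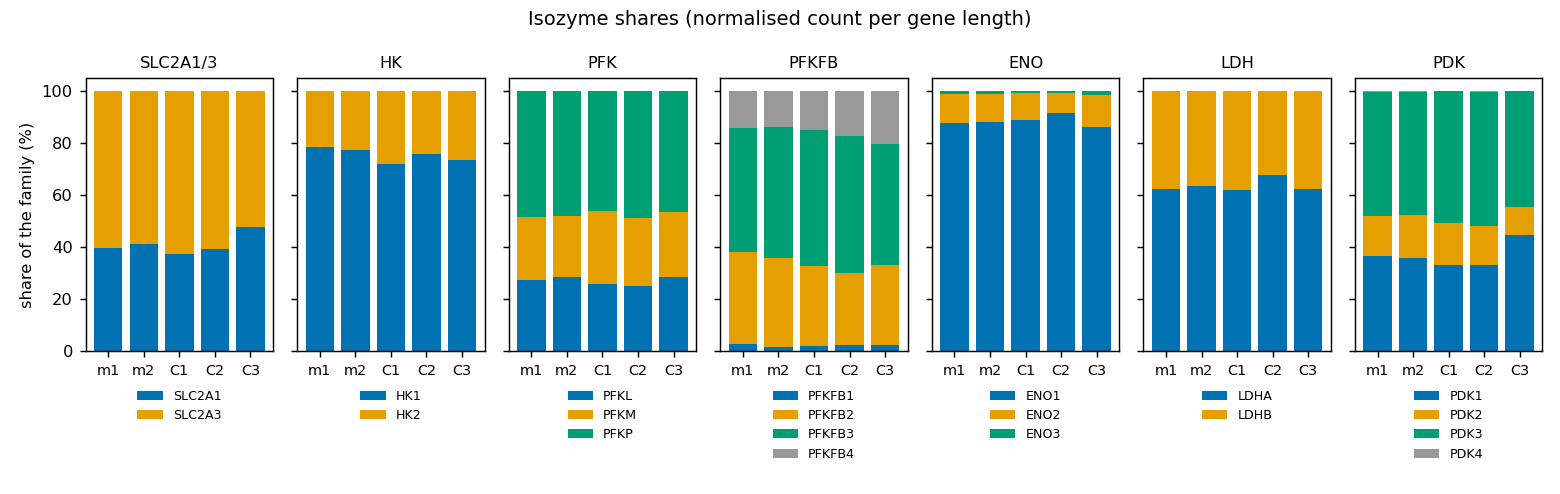
Share of each isozyme in its family (%, stacked to 100) from normalised counts per gene length in mock controls 1 and 2 (m1, m2) and CFIm25-m clones 1 to 3 (C1 to C3). HK1 takes 72.2% to 75.8% of its family in the clones against 77.6% and 78.5% in the mock controls, and the share of PDK1 is highest in C3.

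Pseudogenes can take or lend reads. By symbol, 43 pseudogenes of the 32 genes were listed, of which 4 reached the filter. The 22 listed GAPDH copies together had 0.333% to 0.402% of the normalized count of GAPDH in each sample, and the 2 copies of TPI1 had 1.41% to 1.82% of that of TPI1. Of the members, 21 overlap another listed gene, 10 on the same strand and 15 on the opposite strand.

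Glycolytic promoters are known to hold the E-box read on both strands as CACGTG, which MYC and MLXIPL with their partner proteins can bind. In the RefSeq promoter table for GRCh38.p14, with windows of 250 bases before to 50 after a start, 29 of the 32 genes had 59 windows, of which 8 held the motif, or 13.6%, against 7.26% of all 35116 windows. The 8 genes were HK2, PFKFB3, ALDOA, ALDOC, GAPDH, LDHA, PDHB and PDK2, and PKM was not among them. The stretches of LDHA and HK2, each with 2 copies, are shown with the motif in capitals, since these are the 2 genes with more than 1 copy.
LDHA, chr11:18394366-18394395, plus strand: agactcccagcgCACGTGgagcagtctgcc
LDHA, chr11:18394464-18394493, plus strand: cagcccgactcaCACGTGggttcccgcacg
HK2, chr2:74834964-74834993, plus strand: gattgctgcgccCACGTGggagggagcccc
HK2, chr2:74835009-74835038, plus strand: ttccggcgagagCACGTGgagagaatcgtg
Among the windows with the motif are those of genes with lower and higher values in the clones, and a match of letters says nothing of binding. MYC had 1351 and 1266 in mock control against 1217, 1874 and 1432 in the clones (log2 difference 0.18), and MLXIPL had 255 and 281 against 287, 342 and 462 (log2 difference 0.41). Neither was called.

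Around the pathway, 114 genes of 7 further lists were examined, of which 101 were tested, 20 had an unadjusted p below 0.05 and 1 was called, against 15.1% and 1.88% of all tested genes. That gene was PGM1, phosphoglucomutase 1, which links glycogen and glucose 6-phosphate. It had 1858 and 1923 in mock control against 921, 1149.7 and 880.1 in the clones. Every clone was far below both controls, with a log2 difference of -0.95 and a standard error of 0.12 (adjusted p = 0.0052, limma-trend). With mock control 1 or 2 left out the difference was -0.98 or -0.93 (adjusted p = 0.0647 and 0.0777, limma-trend), and with GAPDH scaling it was -0.69 (adjusted p = 0.0931). It was the single call among 15 tested genes of glycogen metabolism, whose median was -0.09.

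In the other 6 lists limma-trend called no gene, and the gene with the smallest p-value is given for 5 of them. Among 19 tested further isozymes and transporters it was SLC16A7, the MCT2 carrier, with 145 and 146 in mock control against 51.1, 70.2 and 84.6 in the clones (log2 difference -1.10, adjusted p = 0.0533, limma-trend). SLC16A7 was called by DESeq2 (adjusted p = 0.00985) and by limma-trend without clone 3 (adjusted p = 0.00614). Among 6 genes of gluconeogenesis the smallest p-value was that of PCK2, the mitochondrial phosphoenolpyruvate carboxykinase. PCK2 had 1654 and 1748 against 2193, 3001 and 2057 (log2 difference 0.49, adjusted p = 0.153, limma-trend). It was called by DESeq2 (adjusted p = 0.0394) and by limma-trend without clone 3 (adjusted p = 0.0202). The median of these 6 genes was 0.26.

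Among 8 genes for pyruvate entry it was DLAT, the transacetylase of the pyruvate dehydrogenase complex, with 2170.3 and 2216 against 1989.5, 1799 and 1668 (log2 difference -0.27, adjusted p = 0.236, limma-trend), and 7 of the 8 had a negative difference. Among 9 genes of the pentose phosphate pathway it was TALDO1, a transaldolase, with a log2 difference of -0.19, and none had an unadjusted p below 0.05.

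The hypoxia pathway, which is known to drive many glycolytic genes, was covered by 28 tested genes with a median of -0.02, of which 7 had an unadjusted p below 0.05, 4 lower and 3 higher, against 15.1% of all tested genes in both directions. The smallest p-value was that of ADM, the peptide adrenomedullin, with 677 and 729.6 in mock control against 1654, 2052 and 934 in the clones (log2 difference 1.06, adjusted p = 0.0786, limma-trend). ADM was called by limma-trend without clone 3 (log2 difference 1.39, adjusted p = 7.82e-05) and not by DESeq2 (adjusted p = 0.107). HIF1A, the oxygen-regulated factor itself, had a log2 difference of 0.04. The 16 regulators of glycolytic genes had a median of -0.01.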

How the data were processed

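Poly(A+) RNA-seq of 5 samples was analysed. The authors deposited 1 table of signal values, in which the read count of a gene is divided by the size factor of its sample, and the submitters' processing notes name HISAT2, featureCounts, Subread, DESeq2 and hg38, with no versions or strand setting. The authors' own group means, log2 fold changes and p-values in the deposited table were not used. Values were whole multiples of 1 read in 100% of cases (tolerance 0.05 of a read), which gave the depth. In clone 1, where 1 read is worth 1.002, low values alone cannot tell reads from rounded values. Values were tested with limma 3.58.1 (R 4.3.3, lmFit and eBayes with trend) on log2(value + 1), and recovered reads with edgeR 4.0.16 and DESeq2 1.42.0 as alternatives. Benjamini-Hochberg adjustment was over all tested genes. Tests were tried on simulated counts. All 32 glycolysis genes are named, with full statistics for GAPDH and for the 3 uncalled genes with the largest difference at a mean of at least 100. In other lists, called genes or the one with the smallest p-value are named. MYC, MLXIPL and HIF1A are given beside them. Some genes of these lists enter the counts and medians but are not reported here. The genes, lists and rules were chosen with earlier results of these data known. Replicate numbers are shared by the groups in the labels only. Primers were matched to GENCODE v44 transcripts on GRCh37. Pathway lists, scalings, filters and left-out samples tried are described at the end.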

Additional observations from a re-analysis of the deposited data

How the results depend on the processing

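The number of genes called lower and higher, 180 and 181, moved to 280 and 349 with the DESeq2 Wald test, to 25 and 21 without the mean-variance trend, and to 45 lower with GAPDH scaling. With 1 sample left out, it ranged from 34 to 533 lower and from 25 to 536 higher: 38 and 25 without mock control 1, 34 and 26 without mock control 2, 100 and 60 without clone 1, 125 and 96 without clone 2, 533 and 536 without clone 3. Where a mock control is left out, the lone control is taken to vary like the clones. The glycolysis genes called went from 0 to 1 lower with DESeq2 and ranged from 0 to 4 lower and from 0 to 1 higher with 1 sample left out, the highest without clone 3. Calls in the 7 other pathway lists went from 1 to 3 with DESeq2 and 0 without the trend, and ranged from 0 to 7 with 1 sample left out: 0 without either mock control and 7 without clone 3. The median of the glycolysis genes went from -0.16 to 0.10 with GAPDH scaling, which follows from dividing by a gene that is lower in the clones, and kept its sign elsewhere. NUDT21 was no longer called with GAPDH scaling (-0.60), without the trend (-0.86), or without either mock control (-0.85 and -0.87; range with 1 sample left out from -0.95 to -0.80).

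The replicate block, which uses numbers shared only in the labels, gave 1064 genes lower and 1043 higher, 8 glycolysis genes lower and 2 higher, and 11 calls in the pathway lists. Clone 3 has no control with its number, so the block takes it out of the differences. Deviations of same-numbered samples had correlations of 0.00717 and 0.018, which gives no sign of pairing.

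Of 510 values of the other 30 tested glycolysis genes under 17 alternatives, 466 kept their sign and their call, 16 became called with the same sign and 28 changed sign without a call, 14 of them with GAPDH scaling. GAPDH was negative and not called in every alternative but GAPDH scaling, where it has no value. Its coefficient of variation was 12.4% with total-read scaling, 14.6% with upper-quartile and 13.9% with TMM scaling, against 14.9%. The share of PDK4 in its family differed by -0.24 percentage points, and by -0.13 when values were not divided by gene length. With total-read scaling, 62.0% of calls were higher, against 50.1%, and with GAPDH scaling 73.4%. Counting depth limits PFKFB1 and PDK4.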

Other observations

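The 500 tested genes with the highest mean normalized count, a group formed after the low values of clone 3 were seen, had a median log2 difference from the mock mean of -0.09 in clone 1, -0.06 in clone 2 and -0.25 in clone 3, against -0.0006 between the mock controls. The other 18732 tested genes had medians of 0.005, 0.003 and -0.01. Of the 31 tested glycolysis genes, 11 belonged to the 500, GAPDH among them. The ratio of SLC2A1 to GAPDH normalized counts was 0.138 in both mock controls and 0.144, 0.16 and 0.261 in clones 1, 2 and 3, since the transporter was highest and the enzyme lowest in clone 3. LIN28A, an RNA-binding protein of stem cells that is also counted among the regulators of glycolytic genes, was lowest in clone 3 as well. It had values of 56271 and 56659 in mock control against 48004, 47650.5 and 33716.5 in the clones, all of them lower. With all samples it was not called (log2 difference -0.41, adjusted p = 0.292, limma-trend), and without clone 3 it was (-0.24, adjusted p = 0.0106, limma-trend).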
